A study of Rattus norvegicus with 12 samples.

Results

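The contractile genes of smooth muscle and of myofibroblasts were measured on Illumina arrays in cultures grown from the marrow of male Wistar-Hannover rats. The set had 10 genes: Actg2, Acta2, Tagln, Myh11, Myl9, Smtn, Cnn1, Des, Tpm1 and Tpm2. Members were found by their symbol in the deposited probe table, with the endings "_predicted" and "_mapped" removed, which gave 8 of 21684 genes, with 9 of 22523 probes. Acta2 and Tpm2 were not analysed here. Myh11 had 2 probes, of which the one for transcript variant 3 was detected on none of the 12 arrays, so that the other stands for the gene below.

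The sham group had surgery without cord transection and was sampled 12 to 14 weeks later. The SCI group had a spinal cord transection. Per the labels, animals with SCI and sham stimulation were given implant surgery and gastrocnemius ablation at week 14, without a stimulator unit, and were sampled at week 17. The SCI+FES group had SCI, a stimulator implanted at week 14 and, from week 16, functional electrical stimulation (FES) of 60 minutes a day on 7 days, with contractions of 2 s and rests of 18 s at 40 Hz and 1.5 V. Marrow of tibia and femur was grown to osteoblast (OB) or osteoclast (OC) cultures, with culture day 10 in the sample names of the OB pools, day 3 in those of the sham and SCI+FES OC pools, and no day in that of the SCI OC pool. The original names of the SCI OC pool and of both SCI+FES pools share a number whose meaning the labels do not give. For each of the 6 groups 1 RNA pool was made from 3 to 4 animals and run on 2 arrays. The 2 arrays of a pool are technical duplicates, so each group is 1 pool, and a difference between treatments within a culture type carries no test. The labels do not say outright that the SCI pools came from the animals with sham stimulation. If they did, implant surgery and time after surgery cannot be told apart from SCI in the comparison with sham. If they did not, implant surgery and time cannot be told apart from stimulation in SCI+FES against SCI. In SCI+FES against sham, SCI, implant surgery, time and stimulation cannot be told apart in either case. Per group, the labels give no age.

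In smooth muscle, myosin made of the heavy chain of Myh11 and light chains such as that of Myl9 pulls on filaments of actin, and tropomyosin, calponin, caldesmon and smoothelin are bound to the actin. Serum response factor (SRF) and its partners of the myocardin family switch many of these genes on, and transforming growth factor beta induces them in myofibroblasts, the contractile form of fibroblasts. Marrow stromal cells, the precursors of osteoblasts, are known to express several of them in culture. Desmin and tropomyosin 1 are also made by skeletal and heart muscle.

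SRF binds a sequence called the CArG box, and promoter windows of members were searched for it. RefSeq windows (build GRCr8) of 250 bases before to 50 bases after the annotated gene start were matched by symbol for 7 of the 10 members: Actg2, Acta2, Smtn, Cnn1, Des, Tpm1 and Tpm2. The motif of 10 bases reads alike on both strands. An exact CArG box was in 0 of these 7 windows and in 1.64% of all 27457 windows. With up to 1 base differing, a setting chosen after the data were seen, it was in 3 of 7 (Acta2, Smtn and Tpm1) and in 21.0% of all windows. The windows of Smtn and Tpm1 are shown because these members ranged most in level over the osteoblast pools below, and that of Des because it differed from sham in the other direction. Capitals mark stretches within 1 base of a CArG box. In Smtn, at chr14:82644465-82644764 on the minus strand, the stretch began at base -110 from the gene start. In Tpm1, at chr8:76543366-76543665 on the minus strand, the stretches began at -195 and -55. Des, at chr9:84299376-84299675 on the plus strand, had none in this window. Tpm1 has several promoters in mammals, and the table holds 1 window a gene.
Smtn: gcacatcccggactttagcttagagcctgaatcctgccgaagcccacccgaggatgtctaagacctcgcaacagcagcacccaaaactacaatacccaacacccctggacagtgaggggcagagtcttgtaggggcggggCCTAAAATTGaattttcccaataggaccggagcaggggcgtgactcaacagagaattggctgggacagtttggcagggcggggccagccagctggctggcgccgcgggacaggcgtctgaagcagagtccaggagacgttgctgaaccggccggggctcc
Tpm1: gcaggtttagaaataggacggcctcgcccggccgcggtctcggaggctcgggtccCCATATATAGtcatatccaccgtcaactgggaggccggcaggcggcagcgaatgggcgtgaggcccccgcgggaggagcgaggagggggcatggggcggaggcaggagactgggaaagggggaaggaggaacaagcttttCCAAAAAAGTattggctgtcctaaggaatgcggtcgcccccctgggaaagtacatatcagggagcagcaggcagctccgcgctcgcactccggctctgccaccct
Des: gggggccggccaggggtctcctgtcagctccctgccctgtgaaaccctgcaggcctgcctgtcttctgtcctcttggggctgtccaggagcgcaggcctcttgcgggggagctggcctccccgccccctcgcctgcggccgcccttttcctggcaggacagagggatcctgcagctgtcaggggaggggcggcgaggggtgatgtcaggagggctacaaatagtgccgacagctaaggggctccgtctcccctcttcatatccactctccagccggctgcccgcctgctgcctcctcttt

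Levels and differences below are normalised, on the log2 scale, after a background model with an offset of 50 that understates differences of dim genes. Intensities and summed intensities are deposited values that were not normalised between arrays, so differences in array brightness enter them. A probe is called detected on an array when its deposited detection p is at most 0.01. The lowest level of any detected probe was 6.77 to 6.98, depending on the array, and between 33.7% and 38.3% of probes were detected. Levels are compared for the same probe only. Duplicate arrays differed by an SD of 0.11 over detected probes and correlated at r = 0.992 to 0.995 across probes, which are not independent replicates. Of 12 stromal matrix and osteoblast markers, 11 to 12 were detected in each osteoblast pool. All 10 osteoclast and macrophage markers with a probe were detected there too, at a summed intensity of 32683 to 51678 against 104844 to 129611 in the osteoclast pools. In RNA of whole cultures, fewer cells of a type and less RNA per cell cannot be told apart.

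To compare the 2 culture types, the 3 osteoclast pools were set against the 3 osteoblast pools with limma, duplicates averaged first. Where a culture day is given, it is 10 for osteoblast and 3 for osteoclast pools, so it cannot be told apart from culture type. Of the 8 measured members, 7 fell in osteoclast cultures and none rose. The median difference was -2.92, against 0.07 over all 8913 genes tested, of which 6.63% were called lower and 4.87% higher. All 8 members were detected on all 6 osteoblast arrays, and 6 of the 8 on none of the 6 osteoclast arrays. Members that were dark in osteoclast cultures entered the test through the osteoblast pools.

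Among actin filament genes, Actg2, which encodes the gamma actin of visceral smooth muscle, read 14.31 and 14.22 on the 2 sham OB arrays, 14.73 and 14.78 on the SCI OB arrays, and 14.09 and 14.08 on the SCI+FES OB arrays. All 6 osteoclast arrays lay between 6.27 and 6.68. In deposited intensity units this was 16154 to 28360 on osteoblast arrays and -3.68 to 18.8 on osteoclast arrays. The difference was -7.90 ± 0.18 (osteoclast minus osteoblast, SE, n = 3 pools each), at least 171-fold lower, with an adjusted p of 4.1e-06 by limma. A fold written as "at least" raises each undetected dim array to the lowest detected level of that array, unless its own level was higher. Detected dim arrays keep their own level. Actins are near-identical in their coding parts. The probe for Actb, the cytoplasmic actin of all cells, read 15.13 ± 0.051 (SD over 3 OB pools) and 15.16 ± 0.045 (SD over 3 OC pools), so the probe of Actg2 stayed undetected on arrays with bright Actb. Signal from Acta2 on that probe was not tested.

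Tagln encodes transgelin, an actin-binding protein of smooth muscle. It read 13.50 and 13.27 in the sham OB pool, 13.50 on both SCI OB arrays, and 12.85 and 12.84 in the SCI+FES OB pool. The difference between culture types was -6.67 ± 0.22, at least 78.2-fold lower (adjusted p = 1.9e-05). The sham OC pool read 6.88 and 6.97, detected on 1 of its 2 arrays, and the 4 other osteoclast arrays lay between 6.33 and 6.49. The sham OC arrays thus stood above the others. In that pool 9 of 12 stromal matrix and osteoblast markers were detected, against 4 of 12 in each of the SCI and SCI+FES OC pools. Their summed deposited intensity was 4329 to 4795 in the sham OC pool and 3095 to 3355 in the SCI OC pool. In the SCI+FES OC pool it was 2293 to 2454. The mean normalised level of these markers was 7.90 in the sham OC pool. It was 7.27 in the SCI and 7.23 in the SCI+FES OC pool, close to each other. The part of stromal cells in the reading of Tagln was not tested.

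Tpm1 encodes tropomyosin 1, which lies along the actin filament. It read 9.68 and 9.69 in the sham OB pool, 9.04 and 9.08 in the SCI OB pool, and 8.04 and 8.10 in the SCI+FES OB pool. No arrays of different osteoblast pools overlapped, and the 6 osteoclast arrays lay between 6.05 and 6.46, all undetected. The difference between culture types was -2.71 ± 0.38, at least 3.98-fold lower (adjusted p = 0.0028). Smtn, for smoothelin, a cytoskeletal protein of contractile smooth muscle, read 9.92 and 10.05 in the sham OB pool, 10.33 and 10.22 in the SCI OB pool, and 8.63 and 8.39 in the SCI+FES OB pool. The SCI+FES OB pool was low, with a gap to the other 2 that duplicate arrays did not bridge. The difference in osteoclast cultures was -3.13 ± 0.43, at least 6.24-fold lower (adjusted p = 0.0026). Cnn1, for calponin 1, an actin-binding inhibitor of myosin, was dim, at 7.28 and 7.23 in the sham OB pool, 7.57 and 7.73 in the SCI OB pool, and 7.24 and 7.36 in the SCI+FES OB pool. The sham and SCI+FES OB arrays overlapped. Its difference of -0.92 ± 0.14 (adjusted p = 0.0034 by limma) missed the required size of 1, and passed in 5 of 18 alternative settings.

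Among myosin genes, Myl9, for the regulatory light chain of smooth muscle myosin, read 11.80 and 11.85 in the sham OB pool, 11.47 and 11.35 in the SCI OB pool, and 10.36 and 10.42 in the SCI+FES OB pool. These 3 pools did not overlap. Osteoclast arrays lay between 6.35 and 6.84, and the difference was -4.64 ± 0.35, at least 19.2-fold lower (adjusted p = 0.00021). Myh11, for the smooth muscle myosin heavy chain, read 8.82 and 8.68 in the sham OB pool, 9.56 and 9.78 in the SCI OB pool, and 8.73 and 8.51 in the SCI+FES OB pool. Here the SCI pool was high and the other 2 overlapped. The difference in osteoclast cultures was -2.32 ± 0.28, at least 4.19-fold lower (adjusted p = 0.0015).

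Des, for desmin, the intermediate filament protein of muscle cells, was detected on 5 of 6 osteoclast arrays, against 1 for Tagln and none for the other members. It read 8.14 and 8.26 in the sham OB pool, 9.41 and 9.30 in the SCI OB pool, and 9.30 and 9.17 in the SCI+FES OB pool. In osteoclast cultures it read 6.97 and 6.91 in the sham pool, 7.73 and 7.62 in the SCI pool, and 7.56 and 7.37 in the SCI+FES pool. In both culture types the sham arrays lay below all arrays of the SCI and SCI+FES pools. Its difference between culture types was -1.57 ± 0.34 (2.97-fold lower, adjusted p = 0.015). Without the SCI OB pool the call was lost (adjusted p = 0.058 by limma).

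**Figure D1:**
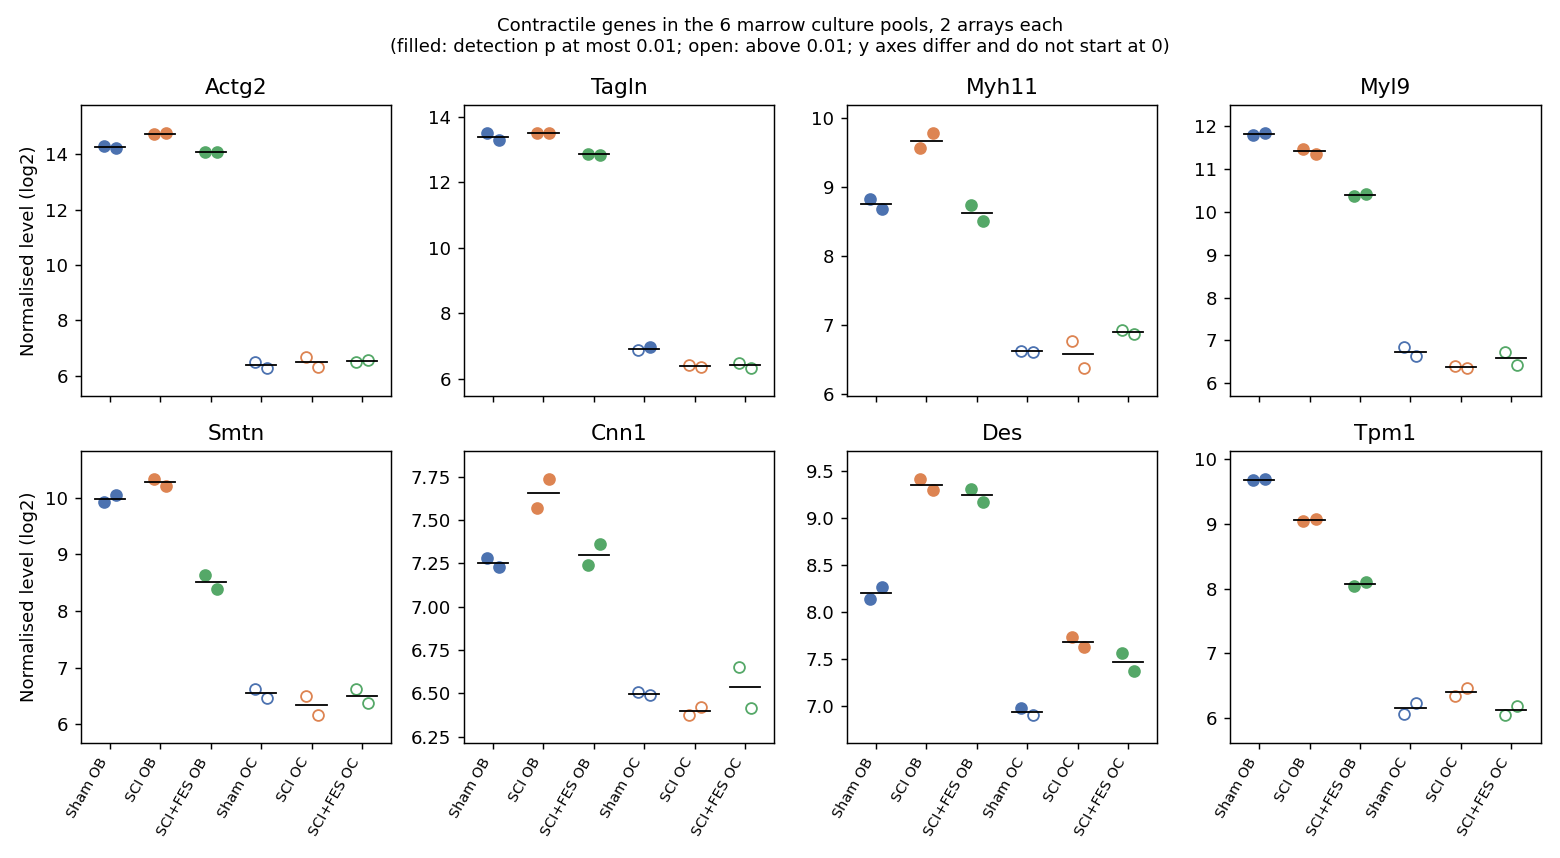
Normalised level (log2, y axis) of the 8 measured contractile genes on each of 12 arrays by pool (x axis), with a line at the mean of the 2 arrays of a pool. Filled points are detected and open points undetected; the osteoblast pools are detected throughout, and Des is detected on 5 osteoclast arrays.

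Other genes of the contractile apparatus gave a mixed picture between the culture types. In a list of 18 further contractile and cytoskeletal genes, 4 of 12 tested fell and none rose, with a median of -0.48. The ones that fell were Cald1, for caldesmon, which binds actin and tropomyosin (-5.24 ± 0.19, at least 23.6-fold), Ppp1r14a, for an inhibitor of myosin phosphatase (-3.20 ± 0.36, at least 6.17-fold), and the LIM protein genes Csrp2 (-1.86 ± 0.21) and Csrp1 (-1.65 ± 0.27). Among nonmuscle actins, myosins and tropomyosins 1 of 6 fell, the nonmuscle myosin gene Myh10 (-2.29 ± 0.33, at least 2.92-fold), and Actb differed by 0.03 ± 0.094 (adjusted p = 0.82). In the list of SRF, MRTF and TGF-beta regulators and targets, 5 of 13 fell. Among them were the secreted matricellular genes Ccn2 (-5.18 ± 0.24) and Ccn1 (-3.37 ± 0.36), and the ligand genes Tgfb2 (-2.32 ± 0.26, detected on 2 of 6 osteoclast arrays) and Tgfb3 (-2.25 ± 0.26, detected on 1). Tgfb1 did not pass (0.19 ± 0.13, adjusted p = 0.30), nor did Mrtfa, for an SRF partner (0.01 ± 0.13, adjusted p = 0.98). Stromal matrix and osteoblast markers fell in 11 of 12, with a median of -5.77.

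To follow the contractile genes after SCI, the SCI OB pool was set against the sham OB pool. The size rule called a gene when pool means differed by at least 2-fold, both arrays of one pool lay above both of the other, and at least 1 of the pools was detected on both arrays. By this rule Des was higher in the SCI OB pool and no member was lower. Des differed by 1.15 ± 0.082 (2.23-fold, SE over the 2 duplicate arrays of each pool, and so of array error alone). Over all 8281 genes 2% were higher and 1.41% lower, which is 166 against 117 genes. With arrays scaled to 1 common median, the median of all genes moved to -0.22 and the counts became 95 higher and 214 lower. Des then missed the size at 0.81.

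The other members did not move together. Myh11 differed by 0.92 ± 0.13, Actg2 by 0.49 ± 0.054, Cnn1 by 0.40 ± 0.085 and Smtn by 0.29 ± 0.084. Tagln differed by 0.12 ± 0.12, no more than its array error. Tpm1 and Myl9 were below the sham pool, at -0.62 ± 0.022 and -0.41 ± 0.065. The members thus spread from -0.62 to 1.15 around a median of 0.34, against -0.02 over all genes. Ppp1r14a, which acts on myosin phosphatase, was higher too (1.07 ± 0.037, 1 of 11 in its list), as were Ccn1 (1.06 ± 0.047), from the list of regulators and targets, and the pericyte marker Cspg4 (1.04 ± 0.19). The other detected pericyte marker, Anpep, lay on the opposite side (-0.53 ± 0.13) without passing.

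Stromal and osteoblast markers were split in this comparison, with 6 of 12 higher in sign and a median of -0.09. The osteoblast genes Ibsp (2.02 ± 0.075), Bglap (1.97 ± 0.22) and Alpl (1.19 ± 0.14) were higher by the rule and the matrix gene Postn was lower (-1.13 ± 0.11). Of 10 osteoclast and macrophage markers 7 had a lower sign, with a median of -0.18, and Mmp9, for a matrix protease, passed (-1.01 ± 0.044). The part of these cells in the differences of the members was not tested.

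Genes of striated muscle stood on the other side. Of 24 skeletal and cardiac muscle genes with a probe, 9 were detected in the sham OB pool, 3 in the SCI OB pool and 4 in the SCI+FES OB pool. The summed intensity of this list was 5287 to 5370 on the sham OB arrays, 3281 to 3792 on the SCI OB arrays and 4195 to 5121 on the SCI+FES OB arrays. Tpm3, which is also in the nonmuscle list, made up most of this sum. Without it, a choice made after the data were seen, 8, 2 and 3 of 23 genes were detected in the sham, SCI and SCI+FES OB pools. The summed intensity was then 1850 to 1886 on the sham OB arrays, 369 to 461 on the SCI OB arrays and 420 to 522 on the SCI+FES OB arrays, so the SCI and SCI+FES pools overlapped and both lay below sham. Mylpf, for a fast skeletal myosin light chain, read 8.22 and 8.33 in the sham OB pool and was undetected in the SCI OB pool (at least 2.71-fold lower). Myh3, for embryonic myosin (at least 1.57-fold), Tnnt3, for fast skeletal troponin T (at least 1.66-fold), and Tnnt2, for cardiac troponin T (-1.07 ± 0.054), were lower as well. Des therefore differed in the opposite direction from these 4 genes, while Tpm1, short of the rule, lay on their side. The part of striated muscle cells in the readings of Tpm1 and Des was not tested.

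**Figure D2:**
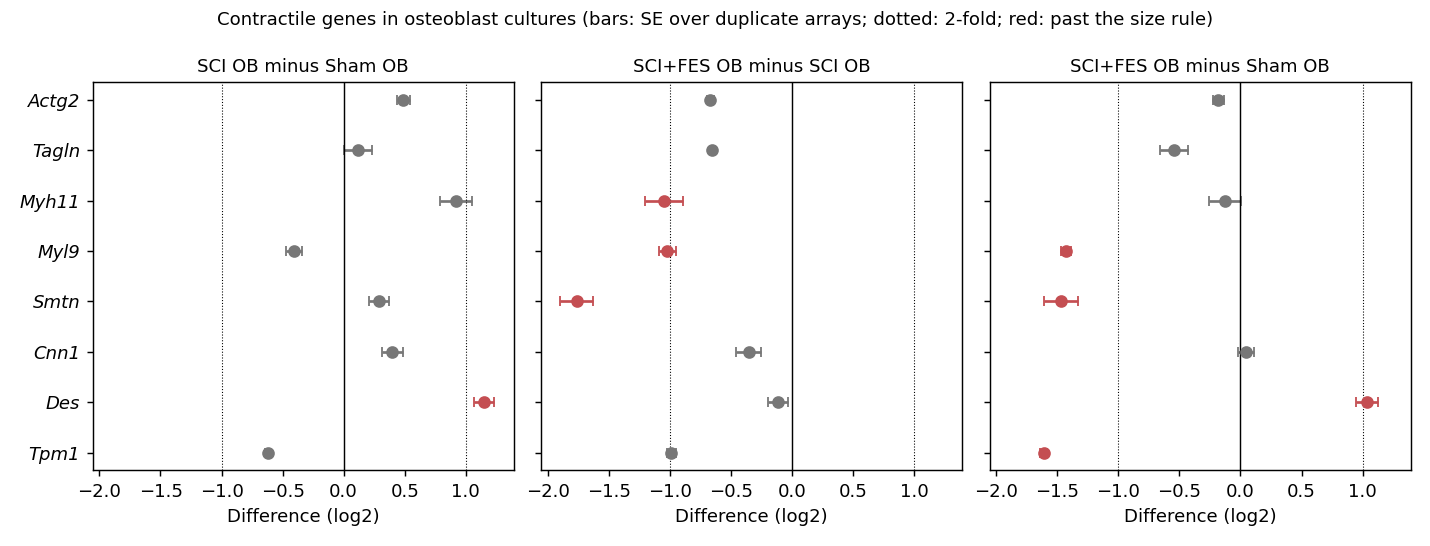
Difference in level (log2, x axis) of each contractile gene (y axis) between osteoblast pools in 3 comparisons, with the SE over duplicate arrays as bars, dotted lines at 2-fold and genes past the size rule in red. Des lies highest of the members in both comparisons with sham, and all 8 points lie below 0 between the SCI+FES and SCI pools.

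To follow the contractile genes with muscle stimulation, the SCI+FES OB pool was set against the SCI OB pool. All 8 measured members were lower in the stimulated pool in sign, and 3 passed the size rule: Smtn, Myh11 and Myl9. Over all 8189 genes 1.5% were lower and 1.7% higher by the rule, which is 123 and 139 genes, or 93 and 161 with arrays scaled to a common median. The median of the members was -0.83, against 0.01 over all genes, of which 48.7% had a lower sign. The SCI OB pool also serves in the comparison with sham, so its own deviation enters both.

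The sizes differed among members. Smtn differed by -1.76 ± 0.13 (3.39-fold) and was the member farthest below, and it passed in all 13 alternative settings. Of these settings, looser detection filters, probes taken singly, the 1.5-fold size and array number as a block could not remove a call. Myh11 (-1.05 ± 0.16, 2.07-fold), Myl9 (-1.02 ± 0.067, 2.03-fold) and Tpm1 (-0.99 ± 0.037, 1.99-fold) did not differ from each other beyond array error, so the size threshold falls among 3 like values. Myl9 kept its call in 9 of 13 alternatives and Myh11 in 11 of 13, and Tpm1 gained one in 5 of 13. Under the common median Smtn alone passed. Actg2 (-0.67 ± 0.027) and Tagln (-0.66 ± 0.0076) were alike. Quantile normalisation gave both SCI OB arrays of Tagln the same level, 13.50, so its SE is no full measure of array error. Cnn1 differed by -0.35 ± 0.10, and Des by -0.12 ± 0.086, close to its array error.

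Neighbouring genes of the apparatus had lower signs as well. In the list of further contractile genes all 10 detected had a lower sign, with a median of -0.21, and Ppp1r14a passed the size rule (-1.52 ± 0.039). Csrp2 (-0.70 ± 0.045), Csrp1 (-0.53 ± 0.0017) and Cald1 (-0.53 ± 0.068) did not. Both SCI+FES OB arrays of Csrp1 were given the same level, 9.94, by quantile normalisation, so its SE too is no full measure of array error. All 12 detected regulators and targets had a lower sign without any past the rule. Tgfb3 was at -0.97 ± 0.094, Tgfb2 at -0.66 ± 0.086, Tgfb1 at -0.24 ± 0.080 and Ccn2 at -0.06 ± 0.056. The nonmuscle list was split, with 4 of 6 lower in sign, Actb at -0.10 ± 0.023 and none past the rule.

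Cell type markers also differed between these 2 pools. Stromal matrix and osteoblast markers had a lower sign in 12 of 12, with a median of -0.67, and Bglap, Alpl, Ibsp and Col1a1 passed the rule. Their summed deposited intensity was 92380 to 94786 on the SCI+FES OB arrays and 114008 to 133873 on the SCI OB arrays. On the sham OB arrays it was 148714 to 149962. The mean normalised level of the list was 11.48 in the SCI+FES, 12.53 in the SCI and 12.35 in the sham OB pool. After normalisation the SCI OB pool thus did not lie below sham. Osteoclast and macrophage markers had a higher sign in 9 of 10, with a median of 0.22. Cd163 (1.47 ± 0.085) and Cd14 (1.16 ± 0.074), receptors of macrophages, passed. The summed intensity of this list was 48483 to 51678 on the SCI+FES OB arrays and 32683 to 37954 on the SCI OB arrays, with 46424 to 46431 on the sham OB arrays. Of 2 detected pericyte markers Cspg4 was lower (-1.08 ± 0.19) and Anpep was at 0.21 ± 0.19, on the other side. Also, 1 of 5 endothelial markers was detected, Tie1, at -0.46 ± 0.035. Of 4 detected skeletal and cardiac muscle genes 3 had a higher sign, and Tnnt2 passed the rule as higher (1.03 ± 0.041). The part of stromal and macrophage cell numbers in the difference of the contractile genes was not tested.

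**Figure D3:**
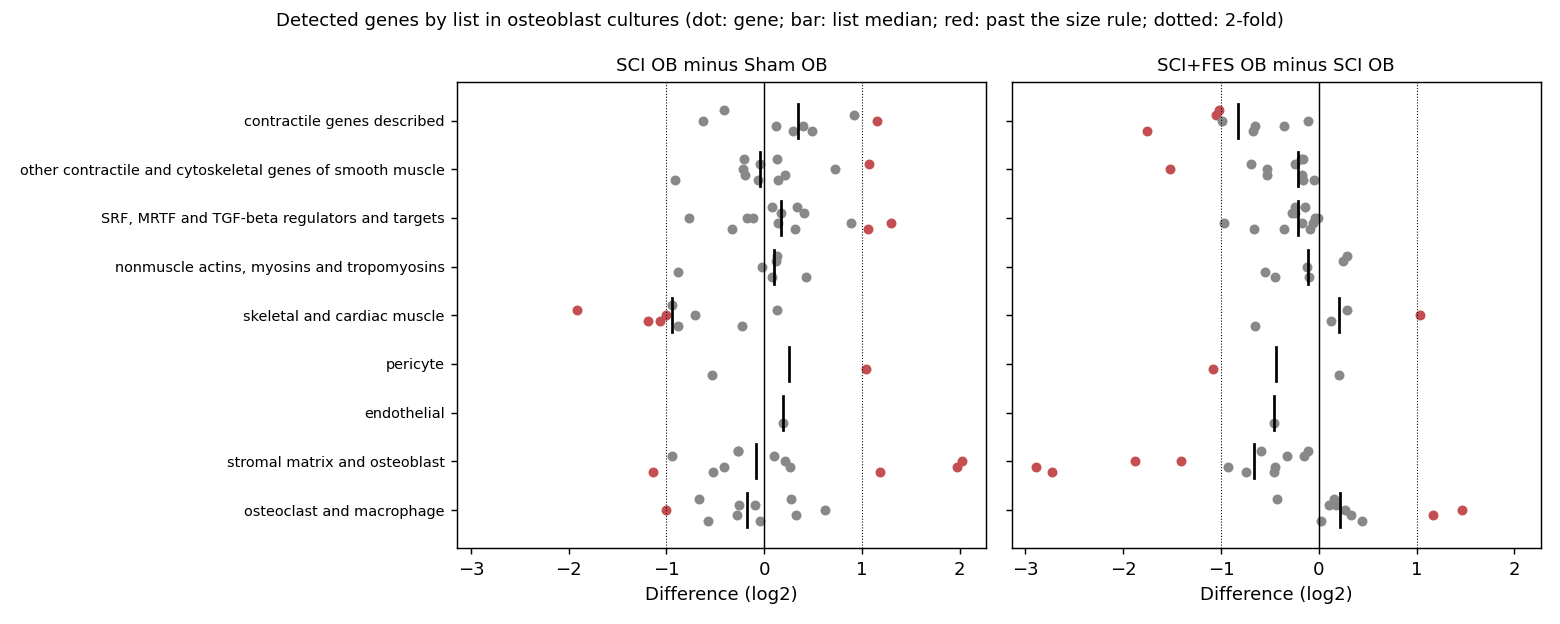
Difference in level (log2, x axis) of each detected gene by list (y axis), for SCI OB minus Sham OB on the left and SCI+FES OB minus SCI OB on the right, with a bar at the list median and genes past the size rule in red. On the right the contractile genes have a median of -0.83 and the stromal list one of -0.67, while osteoclast and macrophage markers have one of 0.22.

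Set against sham, the SCI+FES OB pool had 3 members lower and 1 higher. Tpm1 (-1.61 ± 0.031, 3.06-fold), Smtn (-1.47 ± 0.14, 2.77-fold) and Myl9 (-1.43 ± 0.038, 2.69-fold) were lower by the size rule, and these 3 passed in all 13 alternatives. Des was higher (1.04 ± 0.090, 2.05-fold), and kept its call in 11 of 13. Some of these settings, named above, could not remove a call. Over all 8427 genes 3.28% were lower and 4.24% higher, which is 276 and 357 genes, or 411 and 286 with the common median, where the median of all genes was -0.15. Tagln (-0.54 ± 0.12) lay below sham without passing. Actg2 (-0.18 ± 0.048), Myh11 (-0.13 ± 0.13) and Cnn1 (0.05 ± 0.067) lay near the sham level, the last 2 within array error of it. Myh10, the nonmuscle myosin gene, was lower as well (-1.43 ± 0.10), 1 of 6 in its list. Stromal matrix and osteoblast markers had a lower sign in 11 of 12, with a median of -0.90, and Postn (-1.88 ± 0.11), Alpl (-1.54 ± 0.12), Lox (-1.27 ± 0.12) and Col1a1 (-1.19 ± 0.064) passed. Of 10 osteoclast and macrophage markers, 6 had a higher sign, with a median of 0.06. Cd163 (2.09 ± 0.14) and Cd14 (1.49 ± 0.059) were higher, and Ctsk, for the osteoclast protease cathepsin K, was lower. The striated muscle genes Mylpf (at least 2.77-fold), Tnnc1 (at least 1.70-fold) and Myh3 (at least 1.60-fold) were lower, 3 of 9 detected. Tnnt2 lay near the sham level (-0.04 ± 0.066). The part of these cells in the differences of the members was not tested.

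The order of the 3 osteoblast pools therefore differed among members. For Tpm1 and Myl9 it ran from sham through SCI to SCI+FES, each step larger than the array error. For Smtn and Tagln the SCI+FES pool was low. SCI lay above sham there, by 0.29 ± 0.084 for Smtn and by 0.12 ± 0.12 for Tagln. The SCI pool was highest for Actg2, Myh11 and Cnn1 as well. For Des the sham pool was lowest, and SCI was highest but close to SCI+FES. Over the 3 osteoblast pools the members ranged least in Cnn1 (0.40) and most in Smtn (1.76), as differences on the log2 scale.

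In osteoclast cultures Des could be compared between treatments, since the other 7 members were detected on both arrays of no osteoclast pool. Des was higher after SCI by 0.74 ± 0.065 (1.67-fold) and in the SCI+FES pool by 0.53 ± 0.10 (1.44-fold), both against sham and both without passing the 2-fold rule. The SCI+FES and SCI OC pools differed by -0.21 ± 0.11. Of all genes 0.953% were higher and 1.84% lower after SCI, 1.71% and 2.43% in SCI+FES against sham, and 0.309% and 0% in SCI+FES against SCI. With the common median the genes lower and higher went from 141 and 73 to 212 and 61, from 186 and 131 to 685 and 49, and from 0 and 23 to 3 and 13 in that order. The median of all genes was then -0.07, -0.40 and -0.35.

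By the rule of the smallest root mean square difference over the 6 pool means, each profile centred on its own mean, 5 genes were nearest to the mean profile of the 8 members. They were C1qtnf5 (0.092 on the log2 scale), Sc65 (0.11), RGD1565037, which the file defines as similar to a selenoprotein (0.13), Bgn, for the matrix proteoglycan biglycan (0.15), and Tbx15, a T-box transcription factor gene (0.15). The measure is dominated by the step between culture types, which the 5 genes share at -3.81 to -3.49. Between the SCI+FES and SCI OB pools they differed by -0.96 ± 0.053, -0.79 ± 0.074, -0.81 ± 0.14, -0.61 ± 0.12 and -0.70 ± 0.047 in that order, none past the size rule. These genes were chosen for closeness over the same pools, so their differences follow from the choice and are no independent result. The members themselves lay at 0.44 (Smtn) to 2.08 (Actg2) from their mean.

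**Figure D4:**
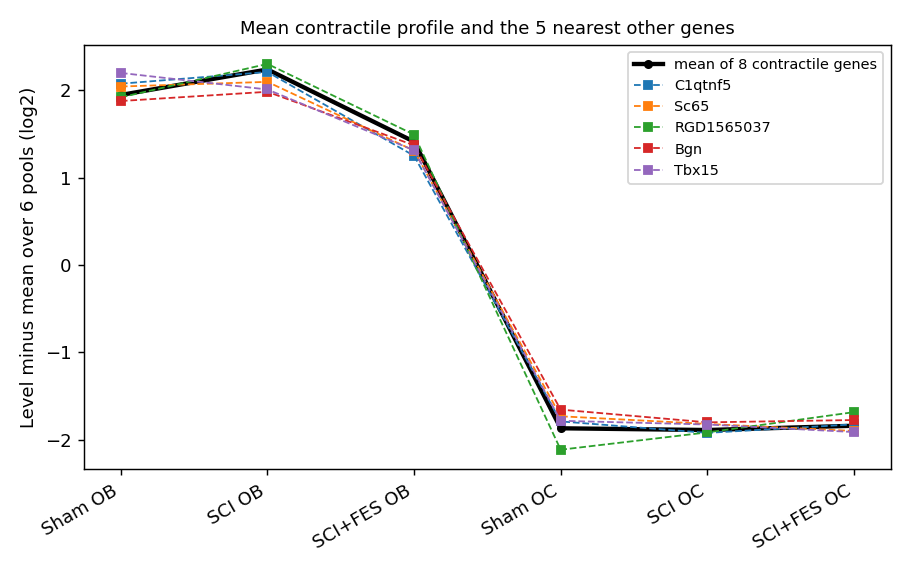
Level minus the mean over the 6 pools (log2, y axis) by pool (x axis) for the mean of the 8 contractile genes (black) and the 5 nearest other genes (dashed). Lines join the pools of a gene and imply no order; the mean of the contractile genes is 2.24 in the SCI OB pool, 1.41 in the SCI+FES OB pool and near -1.9 in the osteoclast pools.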

How the data were processed

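RNA of 6 pools was hybridised to 12 arrays, per the labels. Per the file headers, the deposited table holds for every array an intensity and a detection p-value at 22523 probes. Between 26.8% and 30.4% of deposited intensity values lay below 0, as left by a background subtraction, with software that is not given in the sources used here. A linear rescaling of these deposited intensity values (slopes 0.731 to 1.42, column medians 13.8 to 19.1) makes up the authors' series matrix, and the rule of its scaling is unknown.

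Intensities were corrected by normexp (offset 50) and quantile-normalised over 12 arrays with limma 3.58.1 in R 4.3.3, on the log2 scale. Figures were drawn in Python 3.11.15. A gene was represented by its brightest probe (21684 genes) and tested when both arrays of at least 1 pool had a detection p of at most 0.01. Culture types were compared with limma over 3 pools each, with Benjamini-Hochberg adjustment over all 8913 genes, called at an adjusted p of at most 0.05 and a difference of at least 1. Listed genes were matched by symbol, 9 of them through an older symbol. The limma fit and size rule were run on simulated data, with independent pools and arrays and, for the size rule, every probe taken as detected. That run does not bear on the spread between pools of 1 treatment or on genes near the detection limit. Pools of a treatment may share animals between culture types, so p-values measure the spread between these pools only, and the small number of arrays limits the precision. The members and lists were chosen with earlier results of these data known. Named were all members, the 5 nearest profiles, and a part of the listed genes that passed a rule, with some that did not, chosen after their values were seen. Listed genes left unnamed thus include some that passed. Of the regulators and targets, 1 listed gene is not reported here. The alternatives tried were other backgrounds, scalings and filters, the authors' matrix, a fold of 1.5 and leaving out arrays or pools.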

Additional observations from a re-analysis of the deposited data

How the results depend on the processing

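Between culture types the count of members called was 6 to 7 with each pool left out in turn, 7 with treatment as a block, and 8, with Cnn1, under a smaller offset, the signal floor of 16, a common median and the authors' matrix. For SCI against sham osteoblast pools the count was 1, and became 2 with neqc at an offset of 16 and with a log2 signal floored by adding 16, 3 at 1.5-fold and 0 under a common median. For SCI+FES against SCI it was 3, and became 6 at 1.5-fold and 1 under a common median. It became 4 with neqc, with normexp at an offset of 16 and with the floor. Quantile normalisation within the culture type gave 2. For SCI+FES against sham osteoblast pools it was 4, and became 3 under a common median. For SCI against sham osteoclast pools it was 0, and became 1 with neqc, with the floor and at 1.5-fold, through Des in each case. Without replicate 1 or 2 of each pool the counts were 1 to 2 for SCI against sham, 2 for SCI+FES against SCI and 3 to 4 for SCI+FES against sham. Of 35 differences of members, 31 kept their sign in all alternatives, and the 4 that did not were not called (Actg2 and Cnn1 in SCI+FES against sham, Des in SCI+FES against SCI, Tagln, at 0 in 1 setting, in SCI against sham). The cause was not tested. Array numbers do not pair samples: deviations of same-numbered arrays correlated at -0.07 to 0.12, over 0.1 in 2 of 15 pairs. With the replicate block 7 members were called between culture types. The treatment counts stayed at 1, 3 and 4, and at 0 in the osteoclast comparisons. They could not change, since every pool holds both array numbers and the block leaves its differences as they are.

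All-gene counts (lower, higher) also moved, given here with neqc, with the floor and at 1.5-fold in turn. For SCI against sham osteoblast pools 117 and 166 became 227 and 309, 251 and 323, and 417 and 475. For SCI+FES against SCI 123 and 139 became 259 and 242, 269 and 255, and 416 and 366. For SCI+FES against sham 276 and 357 became 523 and 564, 554 and 593, and 795 and 829. In osteoclast pools 141 and 73 (SCI against sham) became 295 and 190, 308 and 196, and 476 and 324. There 186 and 131 (SCI+FES against sham) became 384 and 316, 402 and 324, and 618 and 499, and 0 and 23 (SCI+FES against SCI) became 10 and 63, 16 and 64, and 5 and 79, with 38 higher under normexp at an offset of 16. Between culture types 434 higher became 675 with neqc and 694 with the floor. Quantile normalisation sets the brightest probes by rank, Actg2 and Tagln among them.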
